A study of Caenorhabditis elegans with 2 samples.

Results

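The regions described here were the ranked ChIP-seq peaks of CEH-91 whose summit lay within 1000 bp upstream to 200 bp downstream of the start of a small nucleolar RNA (snoRNA) gene in the Ensembl annotation of WBcel235. There were 370 such peaks among 53026 ranked peaks, and they were chosen by position alone. Chromatin immunoprecipitation with sequencing (ChIP-seq) recovers DNA bound by a protein, and each peak is a stretch with an excess of recovered fragments. Both samples were whole young adult Caenorhabditis elegans of strain RW12305, genotype st12305[ceh-91::TY1::EGFP::3xFLAG] III, at 62.5 h, grown from larvae synchronised by starvation at L1 after bleaching. The tag had been inserted at the endogenous ceh-91 gene by CRISPR, the chromatin was sonicated, and an antibody against GFP was used. The samples were biological replicates 1 and 2 of 1 group. The deposited notes named 1 control alignment for both. No second genotype, stage or untagged strain was compared, and whole animals mix all tissues. Depth is unknown, because the deposited lists give peaks without read counts. A peak is called listed below when its coordinates were also in the authors' conservative list. That list keeps peaks with a low irreproducible discovery rate (IDR), which is small for peaks that rank consistently high in both replicates. Of the 370 peaks, 75 were listed and 295 were not.

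snoRNAs guide chemical modification of ribosomal and other RNAs in the nucleolus. Box C/D snoRNAs direct 2′-O-methylation by fibrillarin, and box H/ACA snoRNAs direct pseudouridylation by dyskerin. In animals many snoRNAs lie in introns of protein-coding host genes, often genes of ribosomal proteins, and can be released from the spliced intron, but in C. elegans intronic snoRNAs with a promoter of their own have also been described. RNA polymerase III reads tRNA genes from boxes inside the gene, of which the B box has the core word GGTTCNA (N is any base), while small nuclear RNA (snRNA) genes are read from an upstream element bound by the small nuclear RNA activating complex (SNAPc).

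The bases ahead of the snoRNA starts are shown first, because the listed summits lay close to them. Each run holds 130 bases on the strand of the gene, 5′ to 3′, of which the last 15 are the first bases of the annotated snoRNA. They were read from the NCBI RefSeq copy of WBcel235 (ce11). Capitals mark GGTTCNA, the word AACCCG and the word TGTCGG upstream of the start, all noticed on reading these promoters. The first 3 are intergenic snoRNAs with a listed peak and no protein-coding start within reach of the summit, among the strongest of that kind by signal. They lie at chrII:11960783-11960912 (plus strand), chrV:15873912-15874041 (minus strand) and chrIV:8428725-8428854 (minus strand).
W03C9.9: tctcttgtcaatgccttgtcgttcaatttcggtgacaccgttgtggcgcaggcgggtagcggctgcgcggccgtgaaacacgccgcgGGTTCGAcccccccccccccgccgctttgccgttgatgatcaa
T06C12.16: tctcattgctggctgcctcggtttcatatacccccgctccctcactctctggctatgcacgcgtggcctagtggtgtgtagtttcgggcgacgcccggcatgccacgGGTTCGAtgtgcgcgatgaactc
T26A8.6: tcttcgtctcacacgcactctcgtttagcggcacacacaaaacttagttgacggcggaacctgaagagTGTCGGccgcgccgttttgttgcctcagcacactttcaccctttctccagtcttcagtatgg

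The next 4 are snoRNAs inside introns, also with a listed peak and no protein-coding start within reach, at chrV:8500464-8500593 (plus strand), chrIII:11118246-11118375 (plus strand), chrV:19643173-19643302 (minus strand) and chrV:8228955-8229084 (minus strand). The last of them was added after its values were seen, and the first, ZK994.7, also had a tRNA start within reach of its summit. AACCCG and TGTCGG stand 5 bases apart in ZK994.7, Y48A6C.10 and C16D9.11.
ZK994.7: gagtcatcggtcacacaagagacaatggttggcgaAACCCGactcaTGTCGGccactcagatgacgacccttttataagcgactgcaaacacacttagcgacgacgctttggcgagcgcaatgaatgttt
Y48A6C.10: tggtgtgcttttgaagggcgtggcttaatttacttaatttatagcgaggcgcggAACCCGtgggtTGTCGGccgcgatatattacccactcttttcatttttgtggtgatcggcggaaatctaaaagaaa
Y43F8C.22: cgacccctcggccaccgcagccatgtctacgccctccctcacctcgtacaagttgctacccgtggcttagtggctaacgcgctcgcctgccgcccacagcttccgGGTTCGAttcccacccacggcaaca
C16D9.11: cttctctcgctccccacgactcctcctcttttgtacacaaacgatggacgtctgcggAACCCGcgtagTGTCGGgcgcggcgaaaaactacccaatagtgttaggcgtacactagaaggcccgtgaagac

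For contrast, 3 snoRNAs with unlisted peaks are shown. They lie at chrIV:14780724-14780853 (plus strand), chrV:9970257-9970386 (minus strand) and chrII:14018427-14018556 (minus strand). The first is intergenic. The others are intronic, with summits at -22 and -44 bp of the start, and were added after their values were seen. Unlisted means absent from the conservative list, and none of the 3 lacked signal. The first had peaks with a global IDR of 2.01e-05 and 0.000385. C27H6.5 was listed in replicate 1, and F01D5.12 in the authors' pooled list.
WBGene00220185: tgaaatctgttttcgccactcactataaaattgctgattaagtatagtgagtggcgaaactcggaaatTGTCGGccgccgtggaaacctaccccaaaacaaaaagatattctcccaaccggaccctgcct
C27H6.5: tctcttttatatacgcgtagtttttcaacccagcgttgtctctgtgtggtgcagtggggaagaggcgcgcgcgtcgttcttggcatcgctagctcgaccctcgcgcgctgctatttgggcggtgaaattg
F01D5.12: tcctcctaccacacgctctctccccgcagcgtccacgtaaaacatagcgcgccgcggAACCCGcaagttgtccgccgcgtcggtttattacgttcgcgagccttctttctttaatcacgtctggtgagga

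Peaks at snoRNA starts were listed in 75 of 370 cases (20.3%, exact Clopper-Pearson 95% interval 16.3 to 24.7%), against 3.04% of all ranked peaks. All intervals given here cover counting error over peaks only, and peaks of the same 2 libraries are not replicates of a condition. The share exceeded that of the other ranked peaks (2.92%) by 17.4 percentage points (Newcombe 95% interval 13.6 to 21.7). At protein-coding starts with no snoRNA start, 7.09% of 15206 ranked peaks were listed, and the share of all 370 snoRNA peaks was 13.2 points higher (9.38 to 17.6). Of those 370, 142 also had a protein-coding start within reach, and 36 of the 142 were listed (25.4%). Without such a start, 39 of 228 snoRNA peaks were listed (17.1%, 12.5 to 22.6%). At tRNA starts, 76 of 630 ranked peaks were listed (12.1%, 9.62 to 14.9%), and the share of all 370 snoRNA peaks was 8.21 points higher (3.52 to 13.2). At snRNA starts the listed share was 24 of 108 (22.2%, 14.8 to 31.2%), an interval that holds the snoRNA share. Among the 3224 ranked peaks of highest signal, 107 lay at snoRNA starts and 74 of those were listed (69.2%), against 47.0% of all 3224.

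Counted by gene, 255 of the 346 annotated snoRNAs had a ranked summit in their window and 80 of the 255 had a listed one (31.4%, 25.7 to 37.5%). Of the 370 peaks, 225 shared their nearest snoRNA start with another peak, and 7 of the 75 listed peaks lay in the window of more than 1 snoRNA. Listed peaks were spread over all 6 chromosomes. Chromosome X had 1 of 27 (3.70%), at T27A8.8, against 0.575% of all ranked peaks there, and the highest share was 16 of 60 (26.7%) on chromosome IV, against 3.28% of all its ranked peaks. 

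The signal of a peak is the authors' own value, on the scale of its list. It was 131 at the median of the 75 listed peaks (range 3.59 to 768) and 32.8 at the median of the 295 unlisted ones (2.57 to 189), a log2 ratio of medians of 1.99. The ranges overlapped. This is a description and not a test, since signal and listing come from the same ranking. Over the whole list the medians were 123 for listed and 28.9 for unlisted peaks. All but 1 of the listed snoRNA peaks had a signal of 71.8 or more. The exception, at 3.59, overlapped the peak of 71.8 at the same gene, F55A11.10.

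**Figure D1:**
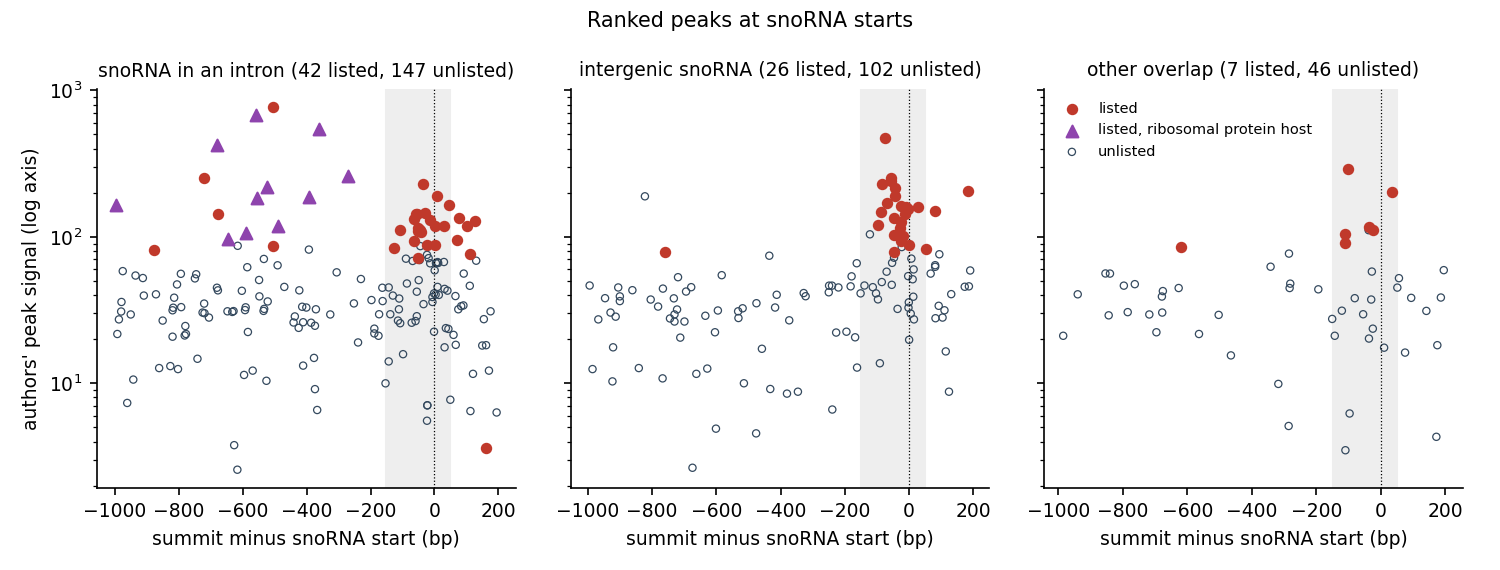
Authors' peak signal (log axis) against the distance of the summit from the nearest snoRNA start in bp, for snoRNAs in introns, intergenic snoRNAs and snoRNAs with another overlap. Each point is 1 peak, filled when listed, with triangles for ribosomal protein hosts (named rpl or rps). The grey band marks 150 bp upstream to 50 bp downstream. Of the listed peaks, 22 of 26 intergenic and 20 of 42 intronic ones lie in the band, and all 11 triangles lie to its left.

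An intronic snoRNA was taken as one lying wholly in an intron of a protein-coding gene on either strand and touching no protein-coding exon. By the nearest snoRNA start, 189 peaks were at intronic, 128 at intergenic and 53 at otherwise placed snoRNAs, which overlap a protein-coding gene in another way. The share listed was 42 of 189 at intronic snoRNAs (22.2%, 16.5 to 28.8%) and 26 of 128 at intergenic ones (20.3%, 13.7 to 28.3%). The difference of 1.91 points had an interval from -7.53 to 10.8, which holds 0 and differences of several points in either direction. The remaining 53 had 7 listed (13.2%). Where a protein-coding start also had the summit in its own window, the shares were 21 of 77 for intronic (27.3%) and 11 of 47 for intergenic snoRNAs (23.4%). With no such start they were 21 of 112 (18.8%) and 15 of 81 (18.5%), a difference of 0.231 points (-11.3 to 11.0). Over all classes, such a start was within reach of 36 of 75 listed peaks and 106 of 295 unlisted ones (35.9%), a difference of 12.1 points (-0.225 to 24.4). A tRNA start was within reach of 1 listed peak, at ZK994.7, and 3 unlisted peaks.

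**Figure D2:**
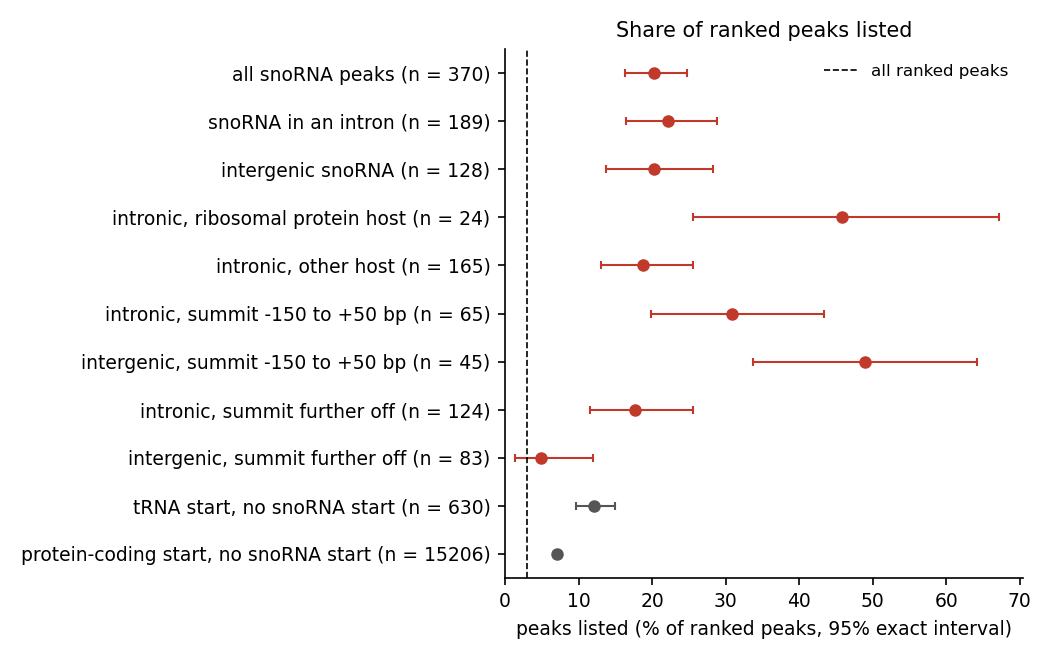
Share of ranked peaks that were listed, in percent with exact 95% intervals, for snoRNA peaks and their subsets (red) and for tRNA and protein-coding starts (grey). The dashed line marks 3.04%, the share over all ranked peaks. The intronic (22.2%) and intergenic (20.3%) intervals overlap along most of their length, and the highest value is 48.9%, for intergenic snoRNAs with a close summit.

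The classes differed in where the listed summits lay. Distances are given from the start, negative upstream. The median summit of listed peaks was at -48 bp of the snoRNA start (quartiles -118 and -11 bp), and that of unlisted peaks at -283 bp (-678 and -22.5 bp). A summit is called close here when it lay between 150 bp upstream and 50 bp downstream, a range set after the positions were seen. Close summits made up 48 of 75 listed peaks (64.0%) and 80 of 295 unlisted peaks (27.1%), a difference of 36.9 points (24.4 to 47.9). Among listed peaks, 20 of 42 at intronic snoRNAs were close (47.6%) and 22 of 26 at intergenic ones (84.6%), a difference of -37.0 points (-54.0 to -13.7). These counts rest in part on replicate 1: without it, 39 snoRNA peaks were listed, and the close ones were 9 of 22 intronic and 13 of 14 intergenic. Without replicate 2 they were 15 of 32 and 18 of 20. Of the close summits, 20 of 65 intronic (30.8%) and 22 of 45 intergenic (48.9%) were listed, with a difference of -18.1 points (-35.3 to 0.286). Of the summits further off, 22 of 124 intronic (17.7%) and 4 of 83 intergenic (4.82%) were listed, with a difference of 12.9 points (3.94 to 21.1).

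Listing was most frequent in the 100 bp just upstream of the snoRNA start, where 35 of 78 ranked peaks were listed (44.9%, 33.6 to 56.6%). In the same bin, 20 of 111 ranked peaks at tRNA starts were listed (18.0%), and 167 of 1605 at protein-coding starts (10.4%). The bin was picked as the snoRNA maximum. Protein-coding starts were highest further upstream, at 16.0% and 16.1% in the 2 bins from -300 to -100 bp, and tRNA starts in the first 100 bp of the gene, at 18.7%. From -600 to -500 bp of the snoRNA start 6 of 27 were listed (22.2%, 8.62 to 42.3%). At its upstream edge the window kept Y43B11AR.7, with a listed summit at -997 bp (signal 164), and ZC410.9, with an unlisted one at -994 bp (46.5). It left out T27A3.9 at -1001 bp (26.9, unlisted) and F17C11.15 at -1003 bp (227, listed). At the downstream edge F58D5.12 and C50C3.14, both at 195 bp and unlisted (59.2 and 6.32), were kept, and F19H8.6 at 205 bp (30.9) and smy-3 at 209 bp (12.2), also unlisted, were left out.

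**Figure D3:**
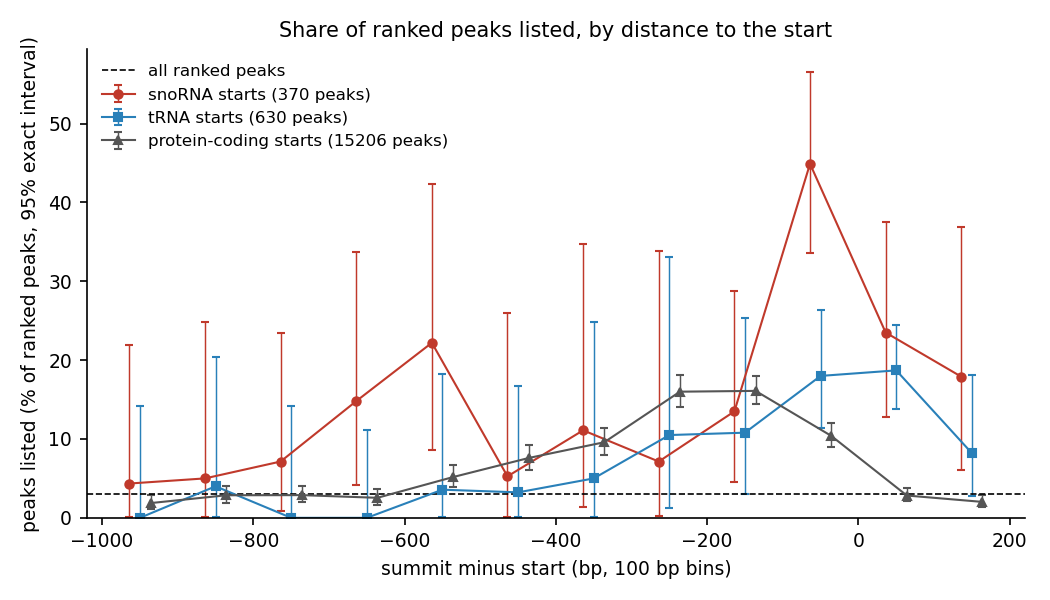
Share of ranked peaks listed, in percent with exact 95% intervals, in 100 bp bins of the distance from the summit to the nearest start, for snoRNA, tRNA and protein-coding starts. The dashed line is the share over all ranked peaks (3.04%). The snoRNA curve is highest in the bin from -100 to 0 bp, at 44.9%.

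Listed intronic peaks lay either close to the snoRNA or, for the most part, in the promoter window of the host. Of the 42, 20 were close to the snoRNA, and their distance to the start of the host had a median of 1340 bp (range 74 to 9380 bp, without regard to direction). The other 22 had their median summit at -198 bp of the host start. Their medians along the snoRNA also differed with neighbours: listed intronic peaks with a protein-coding start within reach had a median of -506 bp from the snoRNA start, and those without one a median of -30 bp.

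Ribosomal protein hosts were taken by name alone, as genes named rpl or rps. A host that encodes a ribosomal protein under another name counts among the other hosts. The hosts so named had 11 of their 24 peaks listed (45.8%, 25.6 to 67.2%), against 31 of 165 at other hosts (18.8%, 13.1 to 25.6%). The difference was 27.0 points (7.91 to 46.8). This split was chosen after the values were seen. All 11 listed peaks had their summit in the promoter window of the host, from -491 to -80 bp of its start, and none was close to the snoRNA. Some of these summits lay nearer the start of another protein-coding gene. At rps-29 it was snt-2 (-76 bp), at rps-12 ska-3 (-104 bp) and at rpl-4 B0041.8 (-154 bp). At rps-23 it was dpm-3 (-250 bp, the host at -284 bp) and at rps-13 nfx-1 (-186 bp, the host at -196 bp). Elsewhere among the 11 the host's own start was the nearest. At hosts not named rpl or rps, 20 of the 31 listed summits were close to the snoRNA. Of the 13 hosts named rpl or rps, which held 19 intronic snoRNAs, 11 had a listed peak and 2, rpl-2 and rpl-26, had unlisted ones only. Y43B11AR.7 inside rps-4 had a listed summit at -245 bp of the rps-4 start, with a signal of 164, and an unlisted one inside the host, 446 bp past its start and at -306 bp of the snoRNA, with 57.2. In B0041.9, inside rpl-4, the summit at -307 bp of the host start was listed at 119, and the one at -1 bp of the snoRNA was not, at 41.1.

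The strongest peaks of intronic snoRNAs below that of C06A1.9 in cdc-48.1 belonged to such hosts and to fbxl-2. The rpl-15 peak (chrIV:654792-655046) lay at -345 bp of the host start and -560 bp of K11H12.13, and had a signal of 678, with 434 and 250 in replicates 1 and 2. The rpl-7A peak (chrIV:4390544-4390777), at -80 bp of the host start, had a signal of 545 and lay at -362 bp of Y24D9A.9, with 363 and 185 in the replicates. At rps-23 the peak had 426, with 286 and 142 in the replicates, and lay at -682 bp of F28D1.13. At rps-12 it had 261, with 157 and 107, and lay at -269 bp of F54E7.10. fbxl-2, the host of B0393.10, had 252, with 166 and 79.3, and its summit lay at -36 bp of the host start. Every one of these was listed in both replicates' own lists, and each was higher in replicate 1. Hosts with a listed peak in the window of 2 of their snoRNAs were rpl-15, rpl-7A, rps-12, rpl-6, rps-29 and Y37E3.8.

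The orientation of the host was also recorded, a split chosen after the values were seen. Over all intronic peaks, 9 of 27 at snoRNAs on the strand opposite their host were listed (33.3%, 16.5 to 54.0%), against 33 of 162 on the host's strand (20.4%, 14.5 to 27.4%), with intervals that overlap. With no protein-coding start within reach, 8 of 21 peaks at snoRNAs on the strand opposite their host were listed (38.1%, 18.1 to 61.6%), against 13 of 91 at snoRNAs on the host's strand (14.3%, 7.83 to 23.2%), a difference of 23.8 points (4.43 to 45.6). Examples are Y48A6C.10 in sup-35 (164, summit at 45 bp) and T03F7.8 in cutl-18 (144, at -57 bp), whose summits were 820 and 2700 bp into the host.

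The strongest listed intergenic snoRNA was F59C6.15 (475), with 306 and 161 in replicates 1 and 2 and its summit at -76 bp, where the start of F59C6.18 was also within reach. W03C9.9 (253), a snoRNA with box C and D words, had 147 and 99.6 in the replicates and its summit at -55 bp, with no protein-coding start within reach. Y53F4B.47 (240) had 145 and 93.0, at -55 bp, and M03D4.78 (230) had 148 and 79.8, at -83 bp. Those 4 were listed in both replicates, and all were higher in replicate 1. Further down, F09G2.14 had a signal of 217, W03B1.17 had 204, Y23H5B.10 had 190, F25H2.15 had 171, T06C12.16 had 163 and Y75B12B.12 had 161. Of these 10, W03B1.17 alone had its summit inside or past the gene start by more than 50 bp, at 182 bp. Among the otherwise placed snoRNAs, F39B2.14 in tmem-107 was strongest, at 291 with 185 and 102 in replicates 1 and 2, its summit at -101 bp and the starts of tmem-107 and rps-26 within reach. C51F7.4 in frm-7 had 202, with 135 and 63.4, at 36 bp and with no protein-coding start within reach.

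Among intronic snoRNAs with no protein-coding start within reach, ZK994.7 in pxn-1, a peroxidasin gene, was strongest, but a tRNA start was within reach of it. Its peak (chrV:8500431-8500740) had a signal of 191, with 132 and 54.7 in replicates 1 and 2, and its summit lay at 7 bp of the snoRNA and 5700 bp into the host. Y48A6C.10 followed at 164, with 102 and 56.4. Y43F8C.22 had 145, with 105 and 40.0, and was listed in replicate 1 and not in replicate 2. C16D9.11 in rol-3 had 144, with 88.2 and 56.4, and its summit was 9380 bp into the host. The listed signals without a protein-coding start ran from 76.0 to 191 for intronic (median 118) and from 78.2 to 253 for intergenic snoRNAs (median 147), so the ranges overlapped.

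Short words ahead of the start were then counted in the 150 bases upstream of every gene, on its own strand. The words were picked from promoters of listed peaks, so the counts at listed snoRNAs are a description with no test. GGTTCNA was present ahead of 8 of the 48 snoRNAs with a close listed summit (16.7%, 7.48 to 30.2%) and 21 of the 298 others (7.05%, 4.41 to 10.6%), against 1.55% of snRNAs, 1.96% of tRNAs and 1.81% of 19973 protein-coding genes. It began at a median of -15 bp in the first set and -18 bp in the second. Inside tRNA genes, in their first 100 bases, the same word was found in 523 of 612 (85.5%). No annotated tRNA started within 300 bp of a snoRNA with an upstream GGTTCNA. A further word, GCNNAGTGG, stood ahead of GGTTCNA in 5 of the 346 snoRNA upstreams (1.45%), T06C12.16 and Y43F8C.22 among them, against 3 of 19973 protein-coding upstreams (0.015%) and 70 of 612 tRNA genes (11.4%, first 100 bases).

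AACCCG followed after 4 to 8 bases by TGTCGG was present ahead of 9 of the 48 snoRNAs with a close listed summit (18.8%, 8.95 to 32.6%) and 10 of the 298 others (3.36%, 1.62 to 6.08%). It was found ahead of 10.1% of snRNAs, 0.163% of tRNAs and 5 of 19973 protein-coding genes (0.025%). Each word alone was most frequent ahead of snRNAs: AACCCG was ahead of 20.8% of snoRNAs with a close listed summit and 33.3% of snRNAs, and TGTCGG was ahead of 27.1% and 32.6%. The pair began at a median of -61 bp (range -80 to -54) in the first set and -60 bp (-66 to -57) in the second. Of the 19 snoRNAs with the pair, 9 had a close listed summit (47.4%, 24.4 to 71.1%) and all 19 had a ranked one. For the 29 with GGTTCNA the count was 8 (27.6%), and for the 299 with neither it was 31 (10.4%). Only 1 snoRNA had both. Searched on both strands, GGTTCNA was ahead of 8 of the 48 and 31 of the 298 (10.4%), beside 3.69% of protein-coding genes, and the pair ahead of 9 and 10 as before. The 9 peaks over the pair had signals of 93.2 to 475 (median 164), 5 of them intronic and 4 intergenic. The 8 over GGTTCNA had 88.0 to 253 (median 153), 2 intronic, 5 intergenic and 1 otherwise placed. The other 31 close listed peaks, with neither, had 71.8 to 291 (median 115).

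Base composition moved with listing, and its part in these counts was not tested. The upstream bases had a median GC content of 53.3% at snoRNAs with a close listed summit and 42.0% at the others, and 32.7% at protein-coding genes. Within 50 bp either side of the summit the medians were 54.5% for listed and 42.6% for unlisted snoRNA peaks, beside 44.6% and 40.6% over all listed and unlisted peaks. TAAT, the core recognised by many homeodomains, was present on either strand in 16 of 75 listed (21.3%) and 140 of 295 unlisted summit windows (47.5%), beside 45.7% and 52.3% of all listed and all unlisted peaks. TAATTA, which contains it, was in 0 of 75 listed (upper limit 4.80%) and 7 of 295 unlisted windows (2.37%). TATAA was in 7 of 75 listed (9.33%) and 40 of 295 unlisted windows (13.6%). On either strand of the same windows, AACCCG was in 14 of 75 listed (18.7%) and 19 of 295 unlisted snoRNA peaks (6.44%), beside 3.78% and 2.46% of all listed and all unlisted peaks. TGTCGG was in 12 listed (16.0%) and 11 unlisted snoRNA peaks (3.73%), beside 3.60% and 3.93%. GGTTCNA was in 10 listed (13.3%) and 24 unlisted ones (8.14%), beside 5.21% and 4.16%.

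**Figure D4:**
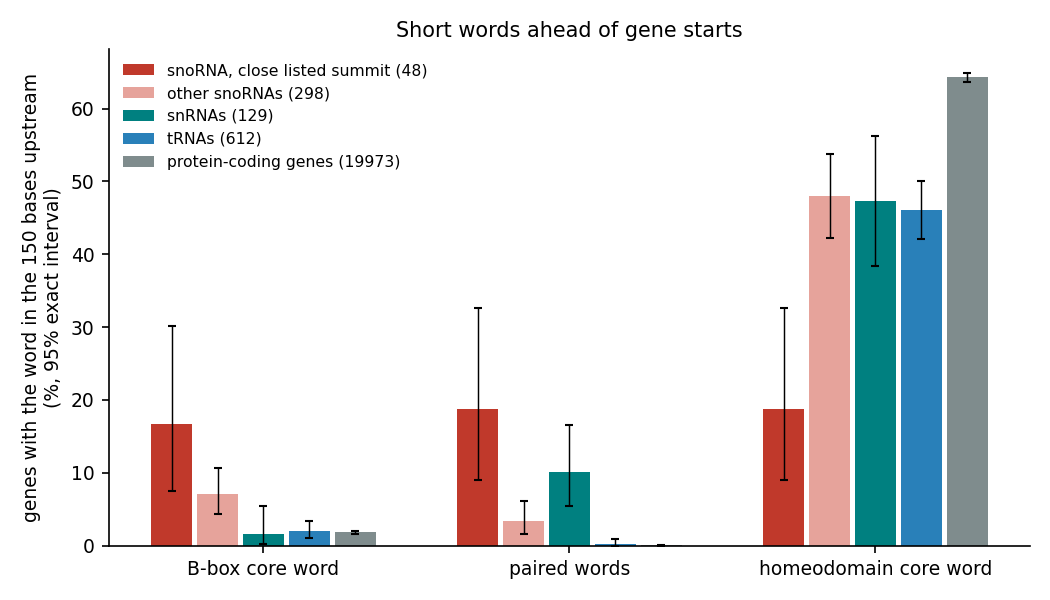
Percent of genes with a word in the 150 bases upstream of the start, on the strand of the gene, with exact 95% intervals, for snoRNAs with a close listed summit, other snoRNAs, snRNAs, tRNAs and protein-coding genes. The B-box core word is GGTTCNA, the paired words are AACCCG then TGTCGG, and the homeodomain core word is TAAT. Close listed snoRNAs are highest for the first word (16.7%) and the pair (18.8%) and lowest for TAAT (18.8%).

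Box words in the snoRNA itself were used as a rough guide to family. TGATGA in the first 25 bases with CTGA in the last 25 marked 15 genes as box C/D, ACA 3 bases from the end marked 58 as box H/ACA, and 273 had neither, so most were unassigned by this rule. Peaks were listed in 8 of 17 cases at genes with the C/D words (47.1%, 23.0 to 72.2%), 22 of 68 with the ACA word (32.4%, 21.5 to 44.8%) and 45 of 285 with neither (15.8%, 11.8 to 20.6%). Many listed peaks with the ACA word had their summit in the host's promoter window, from -269 bp (F54E7.10) to -723 bp (B0393.10) of the snoRNA. The other listed ones lay nearer the snoRNA. Those with the C/D words counted both overlapping peaks of F55A11.10 (71.8 and 3.59) and R12E2.17 at -877 bp, in the window of rpn-8. The part of family in these shares was not tested.

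In the separate replicates, 51 of the 75 listed peaks overlapped a listed peak of replicate 1 (68.0%, 56.2 to 78.3%), against 68.3% of all 1612 listed peaks. For replicate 2 the count was 39 (52.0%, 40.2 to 63.7%), against 58.4% of all listed peaks. Both shares over all listed peaks lie inside the snoRNA intervals. In the replicates' own lists 3.32% and 2.59% of ranked peaks were listed. Both replicates listed 38 (50.7%), replicate 1 alone listed 13, replicate 2 alone listed 1, ZK484.9, and neither listed 23. Over all listed peaks, 50.4% were listed in both. Ranked peaks of replicate 1 overlapped all 75, and those of replicate 2 overlapped 74. The pooled list, in which 3.43% of ranked peaks were listed, held 67 of the 75. Of the 295 unlisted snoRNA peaks, 6 overlapped a listed peak of replicate 1, 3 of replicate 2 and 10 of the pooled list. Each of these counts includes the unlisted peaks of F25H2.15 at 131 bp and C08D8.3 at 155 bp. Both overlapped a listed snoRNA peak of the same gene and had the same replicate signals as it.

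Signal at the 75 listed peaks had a median of 80.4 (41.8 to 519) in replicate 1 and, at 74 of them, 48.3 (27.9 to 252) in replicate 2. It was higher in replicate 1 at 73 of 74, with a median log2 ratio of 0.65, and each list has its own scale. The exception was Y43B11AR.7, with 70.0 in replicate 1 and 89.5 in replicate 2. Peaks listed in both replicates had a median conservative signal of 185 (111 to 768), and those not listed in both had 3.59 to 145. By class, 20 of 42 intronic and 15 of 26 intergenic listed peaks were listed in both.

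**Figure D5:**
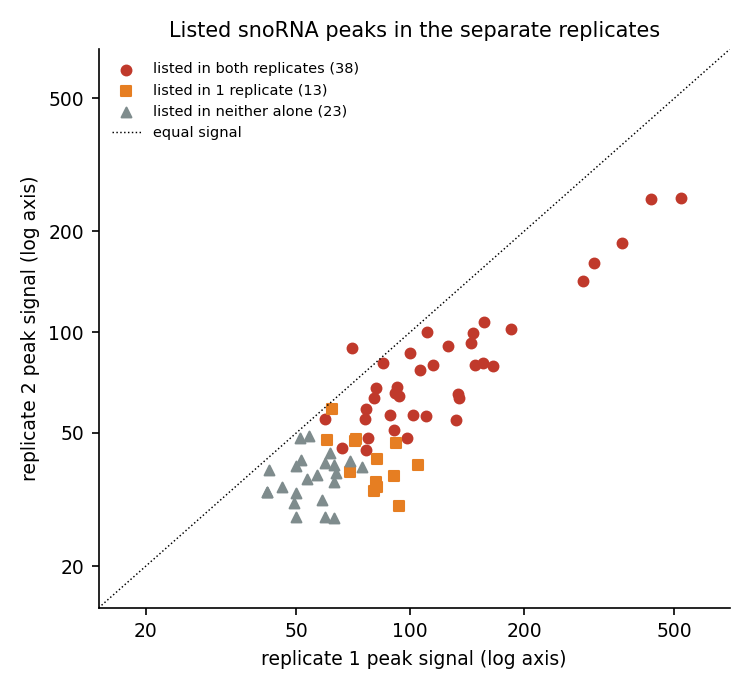
Peak signal in replicate 1 and replicate 2 (log axes, each on the scale of its own list) for the 74 listed snoRNA peaks with a ranked peak in both, coloured by the replicates that listed them. The dotted line marks equal signal, and 73 of the 74 points lie on the replicate 1 side. Peaks listed in neither replicate alone sit at the low end.

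Among unlisted peaks, the intergenic snoRNA WBGene00220185 on chromosome IV stood apart. Its peak at -822 bp had a signal of 189 and a global IDR of 2.01e-05, with 115 and 76.7 in replicates 1 and 2, and its peak at -122 bp had 104 and an IDR of 0.000385. These were the only 2 of the 295 unlisted peaks with an IDR of 0.01 or less, and why they are missing from the conservative list was not tested. Next came T27A3.9 (111, IDR 0.189), with 87.1 and 20.8 in the replicates, and JC8.15 in tag-115 (86.8, IDR 0.104), with 62.1 and 21.1. C27H6.5 in unc-41 (86.8, IDR 0.270) had its summit at -22 bp and 59.5 and 19.2 in the replicates. T27A3.9, JC8.15 and C27H6.5 were listed in replicate 1 and not in replicate 2, and in each the value of replicate 1 was well above that of replicate 2. The pooled list also held T27A3.9 and JC8.15, but not C27H6.5.

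Protein-coding genes of the snoRNA pathway were read from the same list. Of 20 names, 19 matched a gene and snpc-3.3 did not. Of the matched genes, 18 had a ranked summit in their promoter window and 13 had a listed one, beside 1473 of 10400 protein-coding genes with a ranked summit (14.2%). Among box C/D core proteins, fib-1 (fibrillarin, the methyltransferase) had a listed signal of 262, nol-58 had 164 and snu-13 had 152, while nol-56 was unlisted at 63.9. Among box H/ACA core proteins, dkc-1 (dyskerin, the pseudouridine synthase) had 435 and Y48A6B.3 had 104, while garr-1 at 98.5 and nola-3 at 49.1 were unlisted. The assembly factors ruvb-1 (83.5) and ruvb-2 (97.9) were listed. Of the genes grouped here under the nucleolus, ncl-1 was listed at 75.1 and dao-5 was not, at 50.5. The former had 9 ranked summits within reach and the latter 1. Of the SNAPc genes, snpc-3.4 (475), snpc-3.1 (275), snpc-3.2 (143), snpc-1.1 (90.3) and snpc-1.2 (77.1) were listed, snpc-4 was unlisted at 49.3, and snpc-1.3 had no ranked summit.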

How the data were processed

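CEH-91 ChIP-seq peaks from 2 samples of 1 group were analysed. The authors deposited 8 peak lists on ce11, a ranked and a thresholded one for each replicate and for each of 2 whole-series comparisons, so peak calling was done on each replicate and on pools, per the deposited notes. The deposited signal is the authors' own value per peak, on the scale of its list. The deposited −log10 value is that of the global IDR, and the summit offset is also the authors'. The peak caller and aligner, with their versions: not given in the sources used here. The ranked list that holds every conservative peak was used, and the 8 columns that describe single inputs were not.

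Computed here: each summit was assigned to the nearest snoRNA start within the window, and genes, hosts and starts came from Ensembl release 115. Shares carry exact Clopper-Pearson 95% intervals and differences Newcombe intervals. No p-value was computed. Overlap between lists needed 1 bp. Depth is unknown. The intervals cover counting error over peaks only, and peaks that share a snoRNA start are not independent counts. Python 3.11.15, numpy 2.4.6, pandas 2.3.3, scipy 1.17.1 and matplotlib 3.10.9 were used, and the assignment was tested on simulated data.

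The members, gene lists and tests were chosen with earlier results of these data known. The close range (150 bp upstream to 50 bp downstream), the word GGTTCNA, the word AACCCG, the word TGTCGG, the word GCNNAGTGG, and the splits by ribosomal protein host and host strand were chosen after the values were seen. Named peaks are the 20 listed of highest signal, the 10 listed intronic and 10 listed intergenic of highest signal, the 10 strongest listed within 200 bp of a snoRNA start with no protein-coding start, the 5 strongest unlisted, hosts with 2 or more snoRNAs on listed peaks, and those at the window's edges. Other named snoRNAs were singled out after their values were seen. Alternatives covered the window, the IDR limit, the pooled list, each replicate alone, peaks sharing protein-coding starts, merged peaks, the definition of a host, and the overlap.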

Additional observations from a re-analysis of the deposited data

How the results depend on the processing

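The number of snoRNA peaks (370) was 218 with a window of 500 bp upstream to 100 bp downstream, 641 with 2000 bp to 500 bp, and 228 without peaks that share a protein-coding start. Their share listed (20.3%) was 25.7% in the narrow window, 14.4% in the wide one, 14.6% at an IDR of at most 0.001 and 69.2% among peaks of highest signal alone. The listed minus unlisted summit distance (235 bp) was 53.5 bp in the narrow window and 574 bp in the wide one, where the ranges of possible distances are shorter and longer. The difference in protein-coding starts (12.1 points) was 5.80 points in the narrow window and 7.10 points at an IDR of at most 0.001. Leaving out each replicate gave 283 to 286 peaks, a share listed of 13.8 to 19.6%, an intronic minus intergenic difference of 1.11 to 1.43 points, a log2 signal ratio of 1.75 to 1.91, a difference in protein-coding starts of 11.2 to 16.0 points and a distance difference of 171 to 172 bp. The intronic minus intergenic difference was -6.92 points in the narrow window and -2.03 points with hosts on the same strand only, both inside its main interval, and the cause was not tested. Requiring 50% overlap of both peaks left 31 of 38 listed in both replicates. No paired analysis was possible because the samples form 1 group. Peak lists without counts give no depth, both replicates share 1 control, and no untagged worms were compared.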
